A study of Saccharomyces cerevisiae with 18 samples.

Results

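The 10 genes described here encode enzymes of ergosterol synthesis in budding yeast, from the enzyme that makes squalene to the desaturases of the last steps. They were ERG9, ERG1, ERG7, ERG11, ERG24, ERG25, ERG6, ERG2, ERG3 and ERG5, chosen by systematic name, and 10 of 10 had a row among the 5143 rows of the count table. RNA-seq read counts were available for 3 libraries of ten1-31, a temperature-sensitive allele of TEN1, and 3 libraries of wild type (WT). With Cdc13 and Stn1, Ten1 forms a complex that caps telomeres, and the series asks how this complex bears on transcription by RNA polymerase II. Both genotypes spent the night at 25 °C and nearly 5 h at 34 °C, so WT met the higher temperature too. The labels do not say that the libraries came from separate cultures, so p-values measure the spread between these libraries. The other 12 samples are ChIP-seq libraries, which were not analysed here.

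Ergosterol is the main sterol of yeast membranes, the counterpart of cholesterol in animals. The mevalonate route turns acetyl-CoA into farnesyl pyrophosphate, which squalene synthase joins into squalene, and the later enzymes oxidise, close, demethylate, methylate and desaturate the molecule. Several steps use molecular oxygen, and the cytochrome P450 enzymes Erg11 and Erg5 need haem. The transcription factors Upc2 and Ecm22 activate many ERG genes when sterols run low, and azole drugs act on Erg11.

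Of the 10 genes, 5 passed the test between genotypes, in both directions. ERG11, ERG7 and ERG6 were higher in ten1-31, ERG2 and ERG1 were lower, and the highest fold change was 1.52, that of ERG11. ERG9, ERG25, ERG3, ERG5 and ERG24 did not pass. The test was edgeR's quasi-likelihood test with adjustment over all 5133 rows tested and a threshold of 0.05. In that comparison 50.5% of all rows passed, 24.3% as higher and 26.2% as lower in ten1-31, so 5 of 10 is near the background. With library size as the only scaling the split over all rows turned to 1546 higher and 1014 lower, and that of the 10 genes to 4 higher and 2 lower, with ERG9 added. With upper quartile scaling they were 1062 higher and 1547 lower over all rows, and 2 higher and 2 lower among the 10 genes. The median log2 fold change, ten1-31 over WT, was 0.09 over the 10 genes and -0.0038 over all rows. ten1-31 and WT libraries were fully separate for 4 of the 10 genes, and for 60.5% of all rows. The number of genes called was sensitive to single libraries. It was 1 without ten1-31 replicate 1, 1 without ten1-31 replicate 2 and 2 without WT replicate 3. Over all rows the 2591 calls fell by a smaller share, to 1955, 1824 and 1887 in the same fits. The nearness of 5 of 10 to the background therefore holds for the fit with all libraries and not for these fits.

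**Figure D1:**
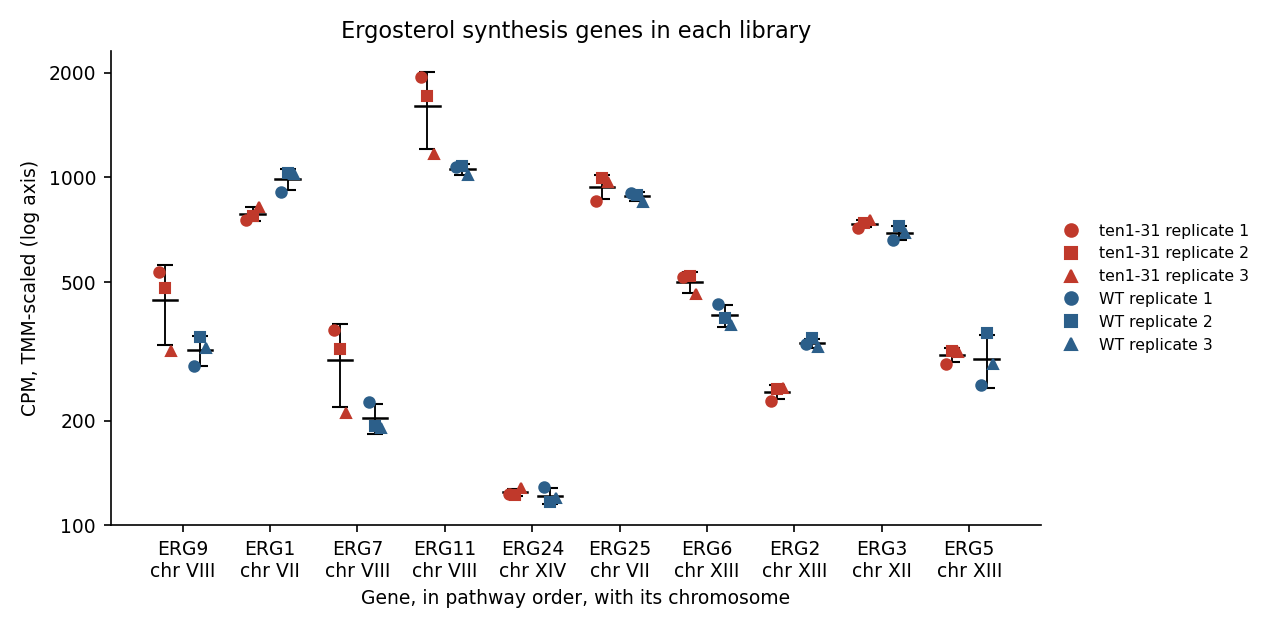
Counts scaled to library size by TMM (CPM, log axis) of the 10 ergosterol synthesis genes in pathway order, with ten1-31 in red left of WT in blue, 1 marker per library and the mean ± SD (n = 3) in black. ERG9, ERG7 and ERG11, the genes on chromosome VIII, spread widely among the ten1-31 libraries, with replicate 3 at the WT level or near it, whereas ERG1 and ERG2 lie below WT in each ten1-31 library.

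Levels are given as CPM, the usual library-scaled count, with TMM scaling. The 6 libraries held 10469608 to 14442999 counts, and the least abundant of the 10 genes, ERG24, had at least 1319 counts in each. TEN1 itself (YLR010C) was listed at 394, 319 and 419 counts in ten1-31 replicates 1 to 3, against 97, 108 and 132 counts in WT replicates 1 to 3, a log2 fold change of 1.77 ± 0.13 (SE). The mutated gene thus separated the libraries by label, with more transcript in the mutant. In RNA from whole cultures, a change in every cell and a change in the share of cells that express a gene cannot be told apart.

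Transcript levels of whole chromosomes differed among the ten1-31 libraries, and 3 of the 10 genes lie on a chromosome where they did. ERG9, ERG7 and ERG11 are on chromosome VIII, ERG1 and ERG25 on VII, ERG6, ERG5 and ERG2 on XIII, ERG3 on XII and ERG24 on XIV. For each library, the median log2 deviation from the WT mean was taken over the rows of each chromosome with at least 10 CPM, leaving out the 10 genes. On chromosome VIII, with 223 such rows, this median was 0.58, 0.44 and -0.01 in ten1-31 replicates 1 to 3. In WT it lay between -0.04 and 0.02 on each of the 16 chromosomes. Chromosomes IX and XI were raised in all 3 ten1-31 libraries, by 0.26 to 0.53 and by 0.38 to 0.46. On the other 13 chromosomes the medians of the ten1-31 libraries lay between -0.10 and 0.03. Replicates 1 and 2 of ten1-31 therefore stood apart from replicate 3 on chromosome VIII, and each result on a gene of that chromosome is given with and without this difference. Chromosome copy number was not measured here, and its part in the results was not tested.

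**Figure D2:**
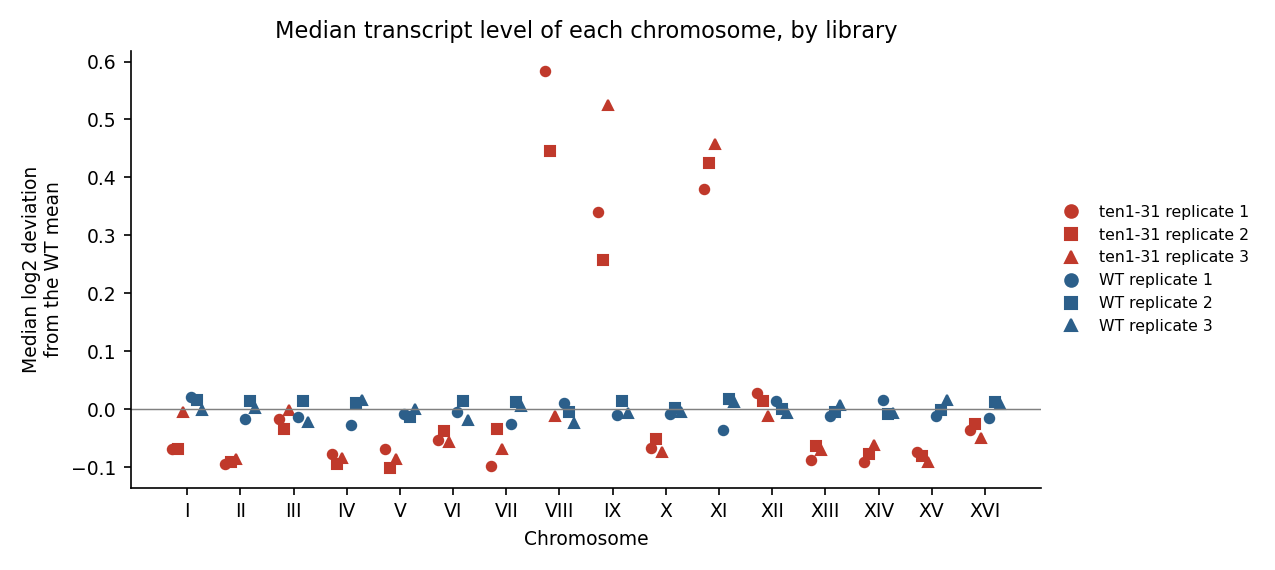
Median log2 deviation from the WT mean over the rows of each chromosome, 1 marker per library, with ten1-31 in red left of WT in blue. Chromosomes IX and XI are raised in each ten1-31 library, and chromosome VIII is raised in ten1-31 replicates 1 and 2, at 0.58 and 0.44, but not in replicate 3, at -0.01.

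The pathway opens with ERG9 (YHR190W, chromosome VIII, positions 484845 to 486179 of build R64), which encodes squalene synthase, the enzyme that commits farnesyl pyrophosphate to sterols. It was at 537, 480 and 316 CPM in ten1-31 replicates 1 to 3, against 286, 348 and 322 CPM in WT replicates 1 to 3. Replicates 1 and 2 of ten1-31 lay above every WT library and replicate 3 lay within the WT range. The log2 fold change was 0.48 ± 0.18 (SE) and missed the threshold (edgeR, adjusted p = 0.0609). It passed with DESeq2 (0.49, adjusted p = 0.0197), with library size as the only scaling (0.55; edgeR, adjusted p = 0.0403) and without ten1-31 replicate 3 (0.66; edgeR, adjusted p = 0.00357). Among the ten1-31 libraries, ERG9 deviated from the WT mean by 0.76, 0.59 and -0.01 on the log2 scale, beside the chromosome medians of 0.58, 0.44 and -0.01. With those medians entered as offsets, the log2 fold change was 0.10 ± 0.09 (SE; edgeR, adjusted p = 0.412).

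ERG7 (YHR072W, chromosome VIII, positions 239098 to 241293) encodes lanosterol synthase, which folds oxidosqualene into the first sterol. It was at 365, 322 and 210 CPM in ten1-31 replicates 1 to 3, against 226, 192 and 191 CPM in WT replicates 1 to 3. Again ten1-31 replicates 1 and 2 stood above WT and replicate 3 within it. ERG7 was called higher at 0.56 ± 0.19 on the log2 scale (SE), with an adjusted p of 0.0399 in edgeR. The call did not survive the chromosome offsets, where the value was 0.18 ± 0.09 (SE; edgeR, adjusted p = 0.134). It was also lost in 4 of the 6 fits that left out 1 library, namely without ten1-31 replicate 1 or 2 or without WT replicate 2 or 3, where the log2 fold change was 0.38, 0.50, 0.52 and 0.51 and the highest adjusted p in edgeR was 0.138. It was lost by a small margin with upper quartile scaling and with limma-voom (adjusted p = 0.0524 and 0.0512).

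ERG11 (YHR007C, chromosome VIII, positions 120091 to 121683) encodes lanosterol demethylase, the cytochrome P450 on which azole drugs act. By mean CPM it was the most abundant of the 10 in each genotype, although ERG1, at 1025 CPM, was higher in WT replicate 3. ERG11 was at 1939, 1718 and 1167 CPM in ten1-31 replicates 1 to 3, against 1072, 1081 and 1014 CPM in WT replicates 1 to 3. Here even ten1-31 replicate 3 lay above all WT libraries, by a small margin. Its log2 fold change, 0.61 ± 0.17 (SE; edgeR, adjusted p = 0.0191), was the highest of the 10. Relative to the chromosome medians, ERG11 still stood 0.29, 0.26 and 0.16 higher on the log2 scale in ten1-31 replicates 1 to 3, against 0.01, 0.04 and -0.03 in WT replicates 1 to 3. With the chromosome offsets it kept its call at a smaller value, 0.23 ± 0.07 on the log2 scale (SE; edgeR, adjusted p = 0.0295). Without ten1-31 replicate 1, ten1-31 replicate 2 or WT replicate 3 the log2 fold change was 0.44, 0.55 or 0.58, and none of these passed (edgeR, adjusted p = 0.0635, 0.0635 and 0.0808).

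In all 3 genes on chromosome VIII, replicate 3 was thus the lowest ten1-31 library. Their summed level was 2840, 2520 and 1693 CPM in ten1-31 replicates 1 to 3, against 1585, 1621 and 1527 CPM in WT replicates 1 to 3. The sum of the 7 genes on other chromosomes was 3489, 3720 and 3702 CPM in ten1-31 replicates 1 to 3, against 3618, 3857 and 3682 CPM in WT replicates 1 to 3, and these ranges overlapped. The spread within ten1-31 was 24.7% to 26.7% of the mean for the 3 genes and 2.32% to 7.83% for the other 7. In WT the same 3 genes spread by 3.43% to 9.91%. Within chromosome VIII the 3 genes were not extreme: of 223 other rows, 60 had a larger log2 fold change than ERG11, 69 than ERG7 and 83 than ERG9. The 10 tested rows nearest to each had a median log2 fold change of 0.25 around ERG11, 0.17 around ERG7 and 0.30 around ERG9.

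**Figure D3:**
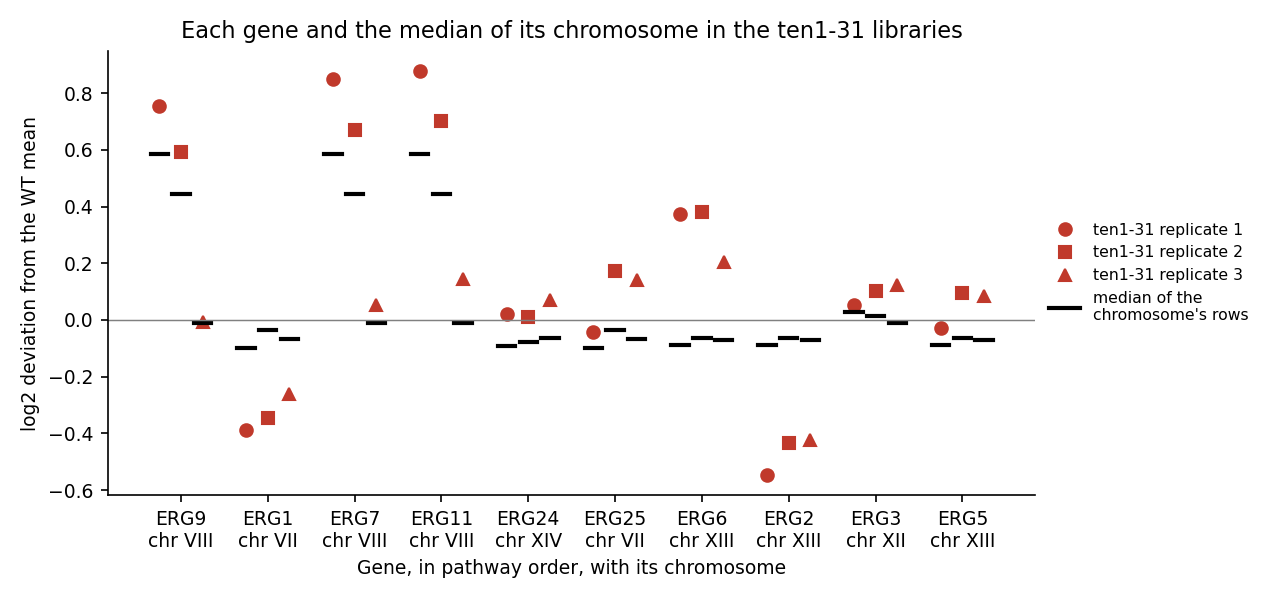
Log2 deviation from the WT mean of each gene in the 3 ten1-31 libraries (red markers) and the median of all other rows of its chromosome in the same library (black bars), in pathway order. For ERG9, ERG7 and ERG11 both the markers and the bars lie lower in replicate 3 than in replicates 1 and 2, whereas ERG1, ERG6 and ERG2 lie away from bars that stay near 0.

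ERG1 (YGR175C, chromosome VII, positions 846933 to 848423) encodes squalene epoxidase, the oxygen-using enzyme between Erg9 and Erg7. It was lower in the mutant, at 754, 776 and 823 CPM in ten1-31 replicates 1 to 3, against 908, 1030 and 1025 CPM in WT replicates 1 to 3. The libraries did not overlap. The log2 fold change was -0.33 ± 0.08 (SE; edgeR, adjusted p = 0.0109), and with the chromosome offsets it was -0.27 ± 0.08 (SE; edgeR, adjusted p = 0.0209). The call was lost without ten1-31 replicate 1 (-0.31; edgeR, adjusted p = 0.0546) and without ten1-31 replicate 2 (-0.32; edgeR, adjusted p = 0.0554).

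The steps that follow Erg11 are taken by Erg24, the reductase that acts on its product, and Erg25, the oxidase that starts removal of further methyl groups. ERG24 (YNL280C) was at 123, 122 and 128 CPM in ten1-31 replicates 1 to 3, against 129, 116 and 120 CPM in WT replicates 1 to 3. ERG25 (YGR060W) was at 856, 994 and 972 CPM in ten1-31 replicates 1 to 3, against 902, 891 and 853 CPM in WT replicates 1 to 3. In both, the genotypes overlapped, and the log2 fold changes were 0.03 ± 0.07 for ERG24 and 0.09 ± 0.08 for ERG25 (SE; edgeR, adjusted p = 0.709 and 0.367).

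ERG6 and ERG2, consecutive in the usual order of the route, moved in opposite directions. ERG6 (YML008C, chromosome XIII, positions 251839 to 252990) encodes the sterol methyltransferase that adds the side-chain methyl group absent from cholesterol. It was at 519, 521 and 462 CPM in ten1-31 replicates 1 to 3, against 433, 394 and 377 CPM in WT replicates 1 to 3, with no overlap. It was called higher at 0.32 ± 0.09 on the log2 scale (SE; edgeR, adjusted p = 0.0164) and 0.39 ± 0.09 with the chromosome offsets (SE; edgeR, adjusted p = 0.00696). Its call was lost without ten1-31 replicate 1, ten1-31 replicate 2 or WT replicate 3 (0.29, 0.29 and 0.28; edgeR, adjusted p = 0.0786, 0.0835 and 0.0687).

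ERG2 (YMR202W, chromosome XIII, positions 667537 to 668205) encodes the sterol isomerase, which shifts the ring double bond in the product of Erg6. It was at 228, 247 and 249 CPM in ten1-31 replicates 1 to 3, against 332, 345 and 325 CPM in WT replicates 1 to 3. No ten1-31 library came near a WT library. Its log2 fold change, -0.47 ± 0.07 (SE; edgeR, adjusted p = 0.00121), was the lowest of the 10, and ERG2 alone among them passed at an adjusted p of 0.01. It passed 0.05 in each of the 6 fits that left out 1 library, where it ranged from -0.50 to -0.44, and it was -0.40 ± 0.07 with the chromosome offsets (SE; edgeR, adjusted p = 0.00196). With ten1-31 replicate 3 alone against WT, a fit in which the lone library is assumed to vary like WT, it was -0.42 and did not pass (edgeR, adjusted p = 0.110).

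Since both genes are on chromosome XIII and their ratio within a library does not depend on the scaling, ERG6 was also set against ERG2, a pair chosen after the values were seen. Per kb of coding length, ERG6 over ERG2 was 1.32, 1.23 and 1.08 in ten1-31 replicates 1 to 3, against 0.758, 0.663 and 0.675 in WT replicates 1 to 3. ERG6 was thus the more abundant of the pair in each ten1-31 library and ERG2 in each WT library.

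The last desaturases did not pass. ERG3 (YLR056W), the ring desaturase, was at 717, 742 and 753 CPM in ten1-31 replicates 1 to 3, against 660, 724 and 691 CPM in WT replicates 1 to 3. ERG5 (YMR015C), the second cytochrome P450 of the route and the side-chain desaturase, was at 292, 318 and 316 CPM in ten1-31 replicates 1 to 3, against 254, 356 and 291 CPM in WT replicates 1 to 3. Both overlapped between genotypes, with log2 fold changes of 0.09 ± 0.07 and 0.04 ± 0.12 (SE; edgeR, adjusted p = 0.305 and 0.821). ERG5 had the widest spread of the 10 in WT, 17.3% of its mean, with replicate 1 lowest and replicate 2 highest. In ten1-31 its spread was 4.68%.

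With the chromosome offsets, 4 of the 10 genes were called, ERG11 and ERG6 as higher and ERG1 and ERG2 as lower, against 48.3% of all rows (24.4% higher and 23.9% lower). The offsets were chosen after the chromosome medians had been seen. They also moved genes on chromosomes whose median was slightly below 0, so that the median log2 fold change of the 10 was 0.11 with them. With ten1-31 replicate 3 as the only mutant library, 0 of the 10 genes and 668 of all rows were called in edgeR, 1 of the 10 had an unadjusted p under 0.05, and ERG11, ERG7 and ERG9 had log2 fold changes of 0.15, 0.05 and -0.01.

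**Figure D4:**
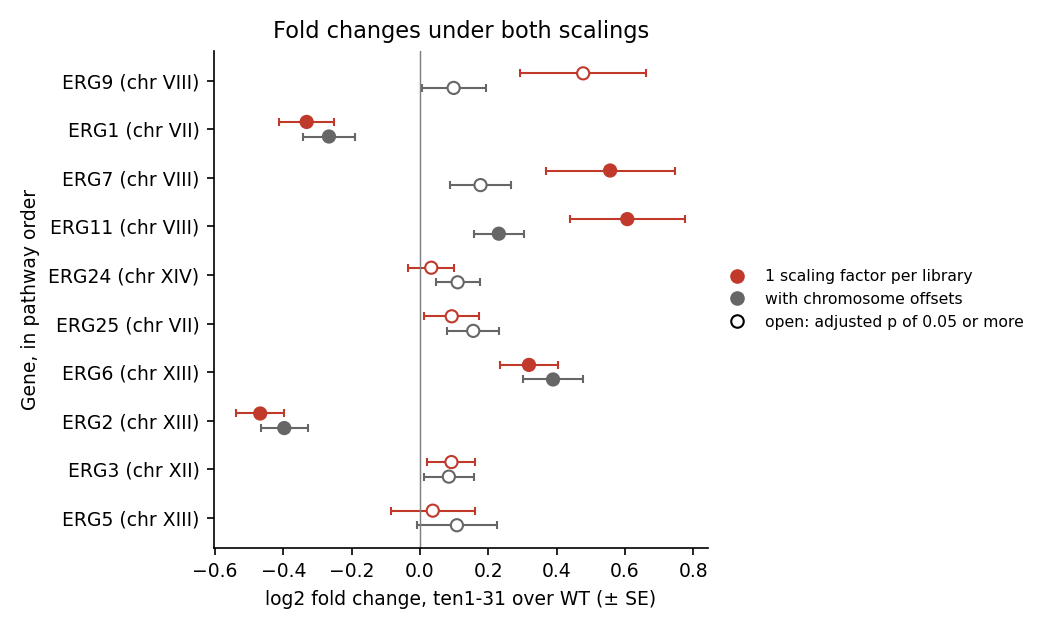
Log2 fold changes, ten1-31 over WT, with their SE for the 10 genes in pathway order, with 1 scaling factor per library (red) and with chromosome offsets (grey); open markers did not pass at an adjusted p of 0.05. The values of ERG9, ERG7 and ERG11 move toward 0 with the offsets, to 0.10, 0.18 and 0.23, and those of ERG1, ERG6 and ERG2 change little.

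Levels were compared between genes as CPM per kb of coding length. In ten1-31 the order from high to low was ERG25, ERG11, ERG3, ERG1, ERG6, ERG2, ERG9, ERG5, ERG7 and ERG24. The libraries of neighbours overlapped for ERG25 and ERG11, for ERG2 and ERG9, and for ERG7 and ERG24. In WT the order was ERG25, ERG11, ERG1, ERG3, ERG2, ERG6, ERG9, ERG5, ERG7 and ERG24. There, neighbours overlapped for ERG11 and ERG1, for ERG1 and ERG3, for ERG9 and ERG5, and for ERG7 and ERG24. ERG25 reached 1011 ± 79.2 CPM per kb in ten1-31 and 948 ± 27.9 in WT, and ERG24 reached 94.5 ± 2.20 in ten1-31 and 92.4 ± 4.82 in WT (SD, n = 3 each). ERG11 was at 1009 ± 250 CPM per kb in ten1-31 and 663 ± 22.7 in WT (SD, n = 3 each), with ten1-31 replicate 3 the lowest mutant library, at 732 CPM per kb. All 10 genes were abundant, since averaged over the 6 libraries they lay between the percentiles 68.0 (ERG24) and 97.3 (ERG25) of all rows on this scale.

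Some features of the rows limit these values. None of the 10 genes overlaps another gene of the RefSeq R64 table, but 6 stand beside an annotated gene that has no row, and the strand setting of the counting is not given in the sources used here.

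By a rule of likeness, the 5 rows outside the 10 genes with the highest Pearson correlation to the mean log2 profile of the 10 over the 6 libraries were YHR033W, BPT1, SMN1, YPT35 and DOG1, with r between 0.979 and 0.989. Of these, YHR033W, SMN1, YPT35 and DOG1 are on chromosome VIII and BPT1 is on XII. Among the 100 rows most like the mean profile, 66 were on chromosome VIII, which holds 4.55% of the rows compared. The mean profile itself was 0.13, 0.13 and -0.05 in ten1-31 replicates 1 to 3, against -0.08, -0.02 and -0.10 in WT replicates 1 to 3. It includes the 3 genes on chromosome VIII, so likeness to rows of that chromosome was partly built in. In ten1-31 replicates 1 to 3 these 3 genes had median log2 deviations from the WT mean of 0.848, 0.669 and 0.053. Those of the 7 other genes were -0.029, 0.094 and 0.085. The correlation is a description over 6 libraries that also share the genotype contrast.

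The rest of the route was read from lists of named genes. Upstream, of 9 genes of mevalonate and farnesyl pyrophosphate synthesis, 5 were called lower and 1 higher in ten1-31. Over all rows 26.2% were called lower and 24.3% higher. The median log2 fold change of the 9 genes was -0.20. ERG10, the acetoacetyl-CoA thiolase of the first step, was at 329 ± 8.66 CPM in ten1-31 and 526 ± 37.3 CPM in WT (SD, n = 3 each), and its log2 fold change was -0.68 (edgeR, adjusted p = 0.000418). ERG13 (HMG-CoA synthase) and ERG20 (farnesyl pyrophosphate synthase, which makes the substrate of Erg9) were also lower, at -0.33 and -0.42 (edgeR, adjusted p = 0.00577 and 0.0139). ERG8 and IDI1 fell by 0.20 and 0.26 on the log2 scale. HMG1, the main HMG-CoA reductase, was the riser, at 0.31 (edgeR, adjusted p = 0.0209), while its paralog HMG2 was at 0.13 (edgeR, adjusted p = 0.122). With library size as the only scaling the split of the list was 3 higher and 3 lower. The count of 6 calls was 4 with the chromosome offsets, 3 without ten1-31 replicate 1, 3 without ten1-31 replicate 2, 4 without WT replicate 2 or ten1-31 replicate 3 and 2 without WT replicate 3. Calls over all rows were 1955, 1824 and 1887 without ten1-31 replicate 1, ten1-31 replicate 2 and WT replicate 3. ERG8 (-0.22 to -0.18) and IDI1 (-0.28 to -0.19) lost their calls when any 1 library other than WT replicate 1 was left out. HMG1 lost its call without ten1-31 replicate 1, ten1-31 replicate 2 or WT replicate 3 (0.30, 0.29 and 0.25), and ERG20 without WT replicate 3 (-0.39), whereas HMG2 passed without WT replicate 1 (0.16).

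Of 8 other post-squalene genes, 2 were called, a count that was 3 without WT replicate 1 and 1 without WT replicate 3. ERG27, a keto reductase that works with Erg25, was lower at -0.44 (edgeR, adjusted p = 0.0205), a call lost without ten1-31 replicate 3 (-0.36) or WT replicate 3 (-0.42). DAP1, a haem-binding protein that acts with Erg11, was higher at 0.55 (edgeR, adjusted p = 0.00342). NCP1, the reductase that passes electrons to Erg11, lies on chromosome VIII and was at 482, 449 and 317 CPM in ten1-31 replicates 1 to 3, against 384, 327 and 325 CPM in WT replicates 1 to 3. It did not pass (edgeR, adjusted p = 0.186), and ten1-31 replicate 3 was again the lowest mutant library, without which it passed (0.42; edgeR, adjusted p = 0.0203). With the chromosome offsets its log2 fold change was -0.10 (edgeR, adjusted p = 0.326), and with ten1-31 replicate 3 as the only mutant library it was -0.12 (edgeR, adjusted p = 0.673). Over the 27 genes from acetyl-CoA to ergosterol, these and the 10 genes together, 5 were called higher and 8 lower, or 48.1%, near the 50.5% of all rows. The split turned to 8 higher and 5 lower with library size as the only scaling and to 7 higher and 5 lower without ten1-31 replicate 3. With the chromosome offsets 10 of the 27 were called, or 37%, against 48.3% of all rows. The count of 13 calls was 10 (37%) without WT replicate 2 and 6 (22.2%) without ten1-31 replicate 1. It was 6 (22.2%) without ten1-31 replicate 2 and 5 (18.5%) without WT replicate 3. The same fits called 2596, 1955, 1824 and 1887 of all rows, against 2591 with all libraries. The share of the 27 genes was thus near that of all rows in the fit with all libraries, but not in each fit.

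Of 7 regulators tested, 3 were called higher and 1 lower, beside 24.3% and 26.2% of all rows. UPC2 was lower at -0.22, with 80.5 ± 3.24 CPM in ten1-31 and 93.9 ± 1.92 CPM in WT (SD, n = 3 each; edgeR, adjusted p = 0.0275), and it did not pass with the chromosome offsets (-0.14; edgeR, adjusted p = 0.119). Nor did UPC2 pass with library size as the only scaling (-0.14; edgeR, adjusted p = 0.125). HRD1, the ubiquitin ligase that marks Hmg2 for degradation, was higher at 0.52, as were SUT1 at 0.35 and the repressor gene MOT3 at 0.28 (edgeR, adjusted p = 0.00139, 0.0244 and 0.00991). The calls numbered 1 without ten1-31 replicate 2, 2 without ten1-31 replicate 3 and 2 without WT replicate 3. The same fits called 1824, 2238 and 1887 of all rows. SUT1 lost its call without any 1 library other than WT replicate 1 (0.30 to 0.37), MOT3 without ten1-31 replicate 2 (0.27), and UPC2 without ten1-31 replicate 2, ten1-31 replicate 3 or WT replicate 3 (-0.22, -0.21 and -0.22). ECM22 and HAP1 were not analysed here.

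Haem synthesis, which supplies Erg11 and Erg5, had 2 calls among 8 genes, in opposite directions, while 50.5% of all rows were called. HEM13, an oxygen-using step whose gene is known to be repressed when haem is plentiful, was at 113, 109 and 112 CPM in ten1-31 replicates 1 to 3, against 58.1, 52.8 and 53.2 CPM in WT replicates 1 to 3, which is 1.02 ± 0.07 higher on the log2 scale (SE; edgeR, adjusted p = 5.81e-05). HEM12, the enzyme before it, was lower at -0.75 (edgeR, adjusted p = 0.000164). Without WT replicate 1 the count was 5, and 2974 of all rows were called.

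Among 11 genes of sterol esters, uptake and acetylation, 3 were called higher and 3 lower, beside 24.3% and 26.2% of all rows. PDR11, a sterol importer on chromosome IX, was at 0.94 with 1 scaling factor and 0.56 with the chromosome offsets (edgeR, adjusted p = 0.000492 and 0.00573). The steryl ester hydrolase gene TGL1, on chromosome XI, was at 0.43 and, with the offsets, 0.00 (edgeR, adjusted p = 0.00384 and 0.966). Its counterpart YEH1 was at 0.35 and NCR1, which encodes a vacuolar membrane protein related to human NPC1, at -0.44 (edgeR, adjusted p = 0.00260 and 0.00841). DAN1 was not analysed here.

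While 50.5% of all rows were called, BTS1 alone was called among 6 other users of farnesyl pyrophosphate, lower at -0.41 (edgeR, adjusted p = 0.0139). Its call was lost without WT replicate 3 (-0.35), and the list had 2 calls without WT replicate 1 or ten1-31 replicate 3. Of 9 fatty acid synthesis genes, 5 were called lower and 1 higher, beside 26.2% and 24.3% of all rows. FAS1, on chromosome XI, was the 1 called higher, at 0.26 and, with the offsets, -0.16 (edgeR, adjusted p = 0.0214 and 0.110). The falls included the elongase gene ELO1 at -0.90, the reductase gene IFA38 at -0.48, the desaturase gene OLE1 at -0.61 and the dehydratase gene PHS1 at -0.27 (edgeR, adjusted p = 0.000532, 0.00193, 0.00991 and 0.0158). Without ten1-31 replicate 1 the list had 3 calls, as it did without ten1-31 replicate 2, and 4 without WT replicate 3. These fits called 1955, 1824 and 1887 of all rows. FAS1 lost its call without any 1 ten1-31 library or WT replicate 3 (0.21 to 0.28), and PHS1 without ten1-31 replicate 1 or 2 (-0.24 and -0.28).

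**Figure D5:**
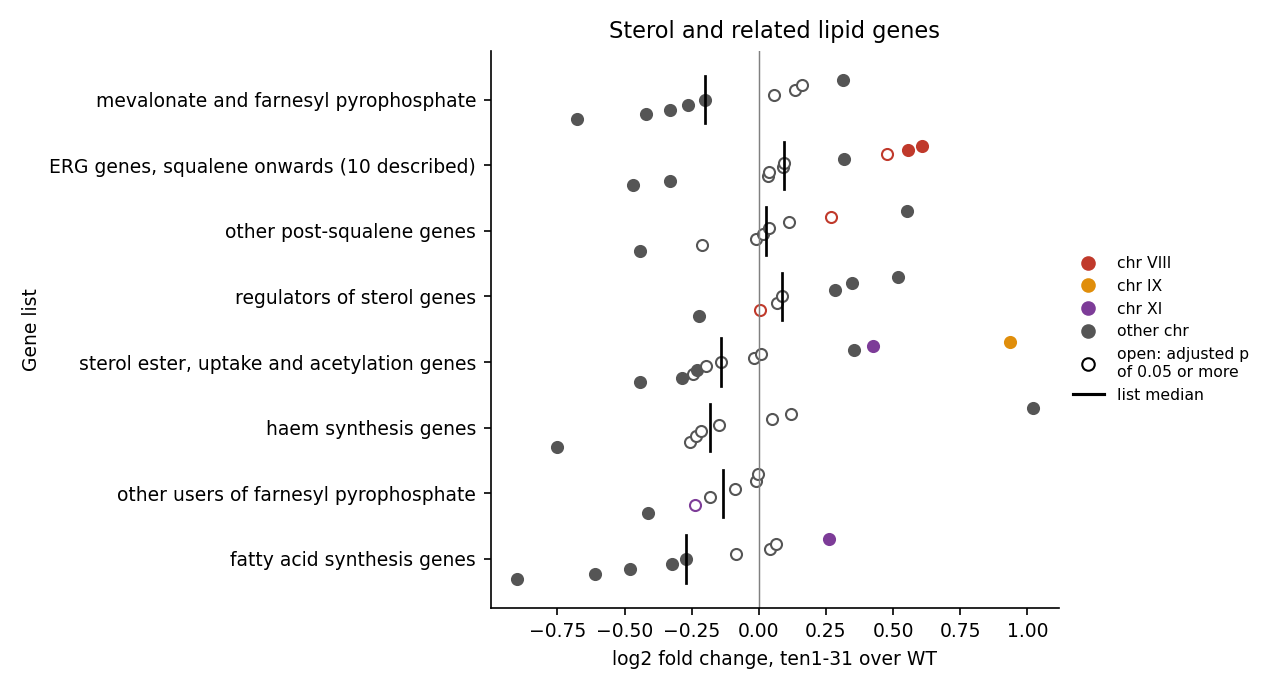
Log2 fold changes, ten1-31 over WT, of the genes of each list, with filled markers for an adjusted p under 0.05, colours for chromosomes VIII, IX and XI and a bar at the list median. The 10 ergosterol genes run from -0.47 to 0.61 with their 3 rightmost on chromosome VIII, and the mevalonate list has its median at -0.20.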

How the data were processed

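Read counts for 6 RNA-seq libraries of rRNA-depleted RNA stand in 1 deposited table, 1 column per library. Per the submitters' processing notes, FastQC, cutadapt, Trimmomatic, TopHat2, Bowtie2, featureCounts and the builds R64 and sacCer3 were used, with no versions or settings, and the row filter is not given in the sources used here. Symbols, positions and lengths came from the RefSeq R64 table, where 5112 rows matched and the 10 lengths are coding lengths.

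In R 4.3.3, edgeR 4.0.16 was run on the counts with the quasi-likelihood test, TMM scaling and Benjamini-Hochberg adjustment. Genotype was the only term, and filterByExpr (minimum count 10, minimum total 15) left 5133 of 5143 rows. CPM values use the TMM-scaled library sizes, log2 deviations a prior count of 2, and an SE is the log2 fold change over the square root of F. Chromosome offsets added each chromosome's median log2 deviation, over rows of at least 10 CPM, to the library scaling. In all, 4 names stood on 2 rows each, and these 8 rows entered no list. No pair of replicates agreed within sampling noise (chi-square over its degrees of freedom of at least 5.33). The method was tested on simulated data in which few rows were changed, and in a second set the fit was given the true offsets. Offsets taken from the data were not tested in this way.

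The 10 genes and all lists were chosen with earlier results of these data known. Named were TEN1, the 10 genes, up to 4 called genes of each other list by smallest p, UPC2, ECM22, HMG1, HMG2 and ERG20, and the 5 most similar rows; ERG8, IDI1, NCP1, HAP1, DAN1, FAS1, NSG1 and RAM2 were named after their values were seen. SRT1 and TSC13, also listed, were not analysed here. Promoter motifs were not searched. The alternatives were other scalings, row filters, DESeq2 1.42.0, limma-voom (limma 3.58.1), a replicate block, leaving out each library or repeated names, and a stricter threshold.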

Additional observations from a re-analysis of the deposited data

How the results depend on the processing

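Over all alternatives, 170 values of the 10 genes were recomputed. Of these, 143 kept their direction and their side of the threshold, 20 kept their direction but no longer passed, 3 passed in addition and 4 changed sign. The sign changes were those of ERG24 and ERG5 with upper quartile scaling (-0.0162 and -0.0151), of ERG5 without WT replicate 1 (-0.0706) and of ERG9 with ten1-31 replicate 3 alone (-0.0071), none of them called. Of 493 values of 29 other named genes, 413 kept direction and side, 62 no longer passed, 7 passed in addition and 11 changed sign. The sign changed for FAS1 (-0.1634) and NCP1 (-0.1000) with the chromosome offsets, NCP1 with ten1-31 replicate 3 alone (-0.1206) and NSG1, whose value was near 0, with upper quartile scaling (-0.0467), limma-voom (-0.0080), the replicate block (-0.0087), the offsets (-0.3562) and ten1-31 replicate 3 alone (-0.2829). Across the fits that left out 1 library NSG1 ranged from -0.1310 to 0.1181. The 3 additional calls were all ERG9, with library size only (0.55), with DESeq2 (0.49) and without ten1-31 replicate 3 (0.66). Across the fits that left out 1 library, ERG5 ranged from -0.0706 to 0.1772, and the median of the 10 genes from 0.0603 to 0.1515. That median was 0.1723 with library size only. The lost calls had adjusted p-values just past the threshold for ERG7 with upper quartile scaling (0.0524 in edgeR) and limma-voom (0.0512), and the cause was not tested.

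Across the same 6 fits, the calls numbered 1 to 6 for the 10 genes, 1 to 3 for the other post-squalene genes, 2 to 8 for the mevalonate genes, 1 to 4 for the regulators, 2 to 5 for haem synthesis, 0 to 2 for other users of farnesyl pyrophosphate, 3 to 6 for fatty acid synthesis and 1824 to 2974 for all rows. A threshold of 0.01, stricter by construction, left 1 of the 10 genes, 1 post-squalene, 2 mevalonate, 2 regulator, 0 farnesyl pyrophosphate user and 3 fatty acid genes, and 1660 rows. With ten1-31 replicate 3 alone, where fewer libraries were compared, the counts in edgeR were 0 of the 10 genes, 0 post-squalene, 1 mevalonate, 0 regulator, 1 sterol ester and uptake, 0 farnesyl pyrophosphate user and 1 fatty acid gene, and 668 rows. At an unadjusted p under 0.05 that fit gave 1 of the 10 genes, 2 post-squalene genes, 1 regulator and 1 farnesyl pyrophosphate user. The other counts of 0 in edgeR, for users of farnesyl pyrophosphate, stood beside 1 gene at an unadjusted p under 0.05 without WT replicate 3 and 2 at the threshold of 0.01. Other users of farnesyl pyrophosphate had 2 calls with upper quartile scaling, limma-voom or the chromosome offsets. Haem synthesis had 4 with upper quartile scaling, and the other post-squalene genes 1 with library size only. The cause of these moves was not tested.

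Nothing in the labels ties libraries by replicate number. Deviations of same-numbered libraries correlated at 0.20, 0.21 and 0.09, and each library correlated best with its own number. Other pairs lay between -0.23 and 0.05. The main fit assumed no pairing, because the labels give none and not all same-numbered values exceeded 0.1. Whether same-numbered libraries shared a batch was not tested. A replicate block gave 2630 called rows, of which 2473 were also called without it, and 5 of the 10 genes were called in both fits. ERG8 and UPC2 did not pass with the block (edgeR, adjusted p = 0.0526 and 0.0513), at log2 fold changes of -0.1984 and -0.2218, against -0.1984 and -0.2214 without it. The chromosome offsets and the fit on ten1-31 replicate 3 alone were chosen after seeing the data.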

Other observations

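Chromosomes VIII, IX and XI differed from the others in how many rows passed. On chromosome VIII, 101 of 236 rows tested were called higher in ten1-31 and 11 lower. Chromosome IX had 107 of 174 called higher and 8 lower, and chromosome XI had 196 of 290 called higher and 13 lower. On the other 13 chromosomes, 19.0% of 4402 rows were called higher and 29.6% lower. In ten1-31 replicates 1, 2 and 3, 207, 197 and 110 of the 223 rows of chromosome VIII with at least 10 CPM lay above their WT mean. Beside the ERG genes, NSG1, a gene of that chromosome whose product binds Hmg2, was at 125, 109 and 87.7 CPM in ten1-31 replicates 1 to 3, against 112, 98.5 and 111 CPM in WT replicates 1 to 3. Its log2 fold change was 0.0029 with 1 scaling factor per library (edgeR, adjusted p = 0.987) and -0.36 with the chromosome offsets (edgeR, adjusted p = 0.00626). RAM2, a farnesyltransferase subunit gene on chromosome XI, was at -0.24 and, with the offsets, -0.66 (edgeR, adjusted p = 0.0521 and 0.000394), and at -0.33 without ten1-31 replicate 3 (edgeR, adjusted p = 0.0188).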
